A study of Mus musculus with 12 samples.

Results

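The 44 genes described here act in mitosis and chromosome segregation, and they were followed in single nuclei of the embryonic mouse cortex after prenatal alcohol exposure. The members were given as a list of gene names, drawn up with earlier results of these data known, and 44 of 44 were found among the 23513 genes of the deposited tables. They were sorted into 10 groups by role, from chromosome condensation to the activity of the anaphase-promoting complex. Pregnant C57BL/6J dams received saline or 2.5 g/kg EtOH by daily intraperitoneal injection, 6 injections in all, and cortices were taken on embryonic day 14. The first part of each embryo's name was taken as its dam, and no other record of the dam was used. By this reading the 5 saline embryos came from dams S1 and S2 and the 6 EtOH embryos from dams E1 and E2. S1 and E1 were in batch 1 and S2 and E2 in batch 2. With 2 dams per treatment, p-values below take littermates as independent, and effects of treatment and of single dams cannot be fully told apart.

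A dividing cell compacts its replicated chromosomes, attaches them to a bipolar spindle through the kinetochores, and holds back anaphase until every pair is attached. Most of these genes are silent in resting cells and are transcribed together in late S phase and G2, so their RNA marks cells that are in the cycle. In the embryonic cortex these cells are the radial glial cells (RGCs) next to the ventricle, the intermediate progenitor cells (IPCs) that arise from them, and the precursors of interneurons, whereas projection neurons (PNs) and interneurons (Ints) have left the cycle.

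A CCAAT box, bound by the factor NF-Y, and a CHR (cell cycle genes homology region), bound by the DREAM and MMB complexes, are known elements of promoters of this kind. RefSeq promoters on GRCm38.p6, from 250 bases before to 50 bases after each start, were listed for 38 of the 44 members as 40 promoters, and both strands were searched. The CHR, spelled TTTGAA or TTCGAA, lay in 82.5% of the 40 member promoters and in 16.2% of all 19863 promoters. The CCAAT box, spelled CCAAT, lay in 77.5% and 37.3%, and both motifs together lay in 67.5% and 6.48%. A pair of CCAAT boxes whose first bases lay 31 to 34 bases apart was found in 20% of the member promoters and in 1.5% of all promoters. An E2F site, spelled TTTGGCGC, TTTCCCGC, TTTCGCGC or TTTGCCGC, lay in 10.0% and 3.01%. These matches are letters in a window and do not show binding. No promoter was listed for Smc4, Cdca2, Ccna2, Aurkb, Incenp and Tpx2.

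A few promoters are printed 5′ to 3′ on the strand of the gene, with matches to the CHR or the CCAAT box on either strand in capitals. Mki67, Cenpf and Kif11 are shown because they were called lower in EtOH embryos in more fits than other members. Aurka and Cdc20 are shown because they had the highest log2 differences in the proliferating clusters. Ccnb1 is shown because its 2 CCAAT boxes come without a match to either CHR spelling, and other spellings were not searched. The windows are chr7:135716330-135716629 for Mki67, chr1:189688037-189688336 for Cenpf, chr2:172370521-172370820 for Aurka, chr4:118437294-118437593 for Cdc20 and chr13:100786437-100786736 for Ccnb1, all on the minus strand, and chr19:37376132-37376431 for Kif11, on the plus strand. In Mki67 the CHR matches begin at bases -116 and -98 from the start, in Cenpf at 3, in Kif11 at -19, in Aurka at 33 and in Cdc20 at -18.
Mki67: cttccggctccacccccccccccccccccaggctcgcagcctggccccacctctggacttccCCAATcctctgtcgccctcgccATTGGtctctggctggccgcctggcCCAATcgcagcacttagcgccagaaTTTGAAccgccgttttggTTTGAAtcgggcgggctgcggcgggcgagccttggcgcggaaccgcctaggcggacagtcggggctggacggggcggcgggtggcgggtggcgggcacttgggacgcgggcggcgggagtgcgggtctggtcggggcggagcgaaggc
Cenpf: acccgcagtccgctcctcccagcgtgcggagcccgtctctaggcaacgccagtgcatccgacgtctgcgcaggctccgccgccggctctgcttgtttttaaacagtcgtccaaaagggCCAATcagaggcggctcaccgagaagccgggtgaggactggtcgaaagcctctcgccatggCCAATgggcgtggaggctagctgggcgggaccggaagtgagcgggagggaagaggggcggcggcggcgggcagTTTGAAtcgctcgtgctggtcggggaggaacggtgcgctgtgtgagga
Kif11: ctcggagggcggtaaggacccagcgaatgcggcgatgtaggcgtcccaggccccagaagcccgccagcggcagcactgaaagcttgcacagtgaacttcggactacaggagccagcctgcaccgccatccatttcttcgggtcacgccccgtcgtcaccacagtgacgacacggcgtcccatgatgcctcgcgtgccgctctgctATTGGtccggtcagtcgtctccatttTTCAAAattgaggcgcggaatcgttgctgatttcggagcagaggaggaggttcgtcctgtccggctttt
Aurka: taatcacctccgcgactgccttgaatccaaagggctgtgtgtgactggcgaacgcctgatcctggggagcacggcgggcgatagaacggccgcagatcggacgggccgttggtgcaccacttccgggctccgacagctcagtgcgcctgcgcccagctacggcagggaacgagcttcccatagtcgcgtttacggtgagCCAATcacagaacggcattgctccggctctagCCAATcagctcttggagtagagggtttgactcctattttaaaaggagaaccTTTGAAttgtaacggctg
Cdc20: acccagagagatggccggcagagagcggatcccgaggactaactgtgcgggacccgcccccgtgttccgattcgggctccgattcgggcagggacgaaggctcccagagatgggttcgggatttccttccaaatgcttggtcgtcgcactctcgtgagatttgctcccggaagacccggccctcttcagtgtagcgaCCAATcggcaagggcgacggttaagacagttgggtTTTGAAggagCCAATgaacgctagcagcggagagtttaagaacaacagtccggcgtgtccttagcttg
Ccnb1: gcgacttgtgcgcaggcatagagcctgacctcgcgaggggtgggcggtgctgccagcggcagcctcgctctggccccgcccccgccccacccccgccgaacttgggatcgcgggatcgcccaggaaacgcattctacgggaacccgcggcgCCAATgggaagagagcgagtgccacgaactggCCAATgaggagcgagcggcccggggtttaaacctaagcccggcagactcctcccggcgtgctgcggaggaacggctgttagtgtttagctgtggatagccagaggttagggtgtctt

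The tables held 50550 nuclei in 25 clusters, with cluster numbers and names as given by the authors. Total unique molecular identifiers (UMIs, each standing for 1 counted RNA molecule) were 44017566 to 83061737 per saline embryo and 14078316 to 38034349 per EtOH embryo, so the treatments did not overlap in depth. Median UMIs per nucleus were 6325 to 9051 in saline and 4072 to 6911 in EtOH embryos. Embryo S2-4 had the fewest UMIs per nucleus among the saline embryos and stood apart in several results below, which are therefore also given without it. Of 50226 barcode sequences, 314 occurred in more than 1 embryo. As a check on cell types, the 6 projection neuron markers summed to 1996 to 2611 CPM (UMIs of a gene scaled to the same UMI total in each set of nuclei) over the embryos in the 8 PN clusters and to 536 to 712 CPM in the proliferating clusters.

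Members were highest in 6 clusters that hold the dividing progenitors, which are Cluster 17 (mitotic IPCs), Cluster 2 (RGC 1), Cluster 3 (interneuron precursors), Cluster 10 (late interneuron precursors), Cluster 20 (RGC 2) and Cluster 21 (cortical hem RGCs). The authors named clusters in part from Top2a and Mki67, and clustering used these genes, so the order of clusters is a description and was not tested. The summed level of the 44 members was 8066 ± 779 CPM (SD, n = 11 embryos) in Cluster 17, 7381 ± 927 in Cluster 2, 5792 ± 518 in Cluster 3 and 5547 ± 735 in Cluster 10. Clusters 17 and 2 lay within 1 SD of each other, as did Clusters 3 and 10. Cluster 20 followed with 3827 ± 943 CPM (n = 9 embryos with at least 10 nuclei), Cluster 21 with 2734 ± 736 (n = 10), and then, far below, Cluster 12 (non-mitotic RGCs) with 1275 ± 216 CPM (n = 11). Cluster 6 (non-mitotic IPCs) had 699 ± 134 CPM, and the lowest cluster was Cluster 22 (callosal PN) with 482 ± 62.9 CPM. The first 9 clusters came in the same order in saline and in EtOH embryos.

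**Figure D1:**
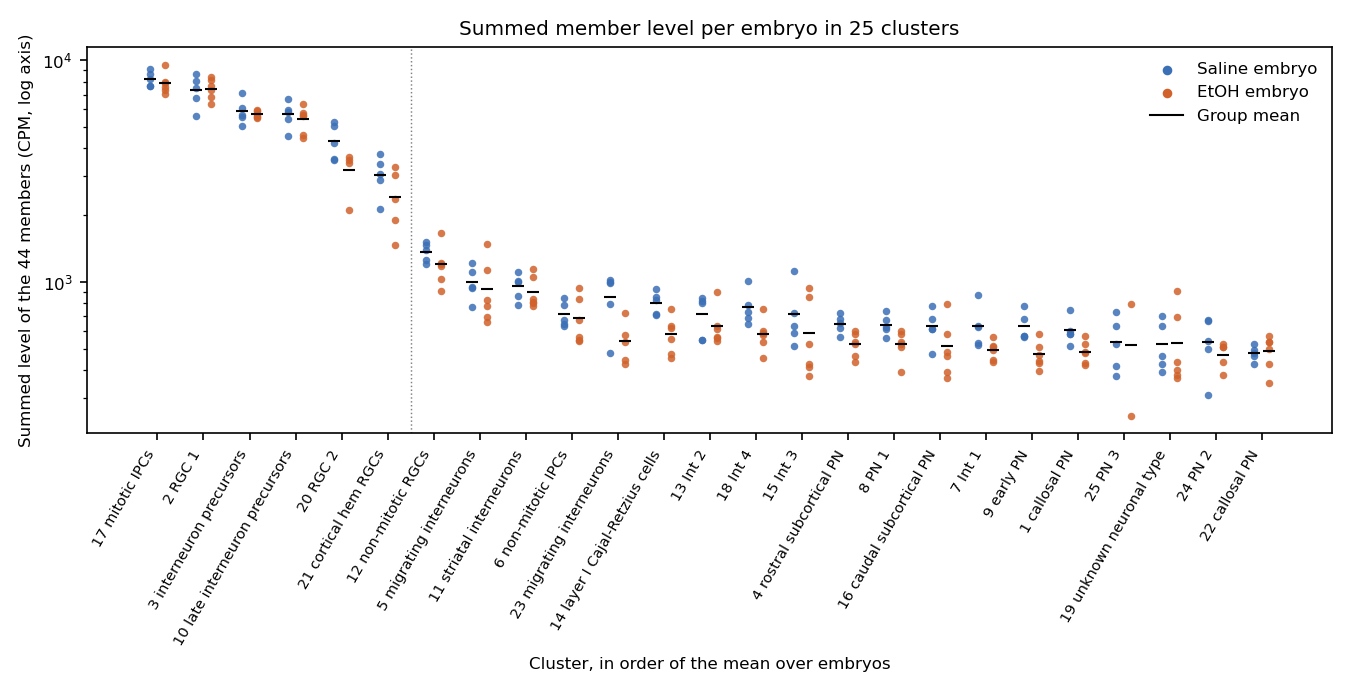
Summed level of the 44 members in CPM (log axis) in each of 25 clusters, with 1 point per embryo with at least 10 nuclei (blue, saline; orange, EtOH) and a black line at each group mean. The 6 clusters left of the dotted line lie above all others, the highest being Cluster 17 (8066 CPM) and the lowest of them Cluster 21 (2734 CPM), and Cluster 12 comes next (1275 CPM).

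For 42 of 44 members the 6 highest clusters were these 6, with Smc2 and Smc4, subunits of condensin, as the exceptions at 5 of 6. Cluster 17 was the highest for 38 members and Cluster 2 for the other 6. Per kb of gene span over all nuclei, Top2a, the topoisomerase that untangles sister DNA, had 5.60 CPM, followed among the leading genes of the role groups by Cenpa (3.21), which replaces histone H3 at centromeres, Ckap5 (3.13), a microtubule polymerase, and Mki67 (3.10), which coats mitotic chromosomes. Birc5 (2.15), a subunit of the chromosomal passenger complex, Kif23 (1.88), a kinesin of the central spindle, Ccnb1 (1.36), the mitotic cyclin B1, and Cdc20 (1.35), an activator of the anaphase-promoting complex, had less. Aurka (0.911), the kinase of the spindle poles, and Anln (0.731), a scaffold of the cytokinetic ring, had the least of these 10.

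All of the genes named here with a range peaked in Cluster 17. Top2a had 789 CPM there and was lowest in Cluster 24 (PN 2) at 11 CPM. Mki67 had 308 CPM at its peak and 14.4 CPM at its lowest, in Cluster 19, and Cenpa 128 and 2.53 CPM, the latter in Cluster 16. Ckap5 had a narrower range, with 596 CPM at its peak and 198 CPM at its lowest, in Cluster 12. Over 25 clusters, the other genes whose mean level (log2(CPM + 1)) followed the summed member level most closely, by Pearson r and among 13646 genes with at least 5 CPM in 1 cluster, included Ect2, Cep55, Sgo2a, Kif14, Kif18a, Cdc25c, Sgo1, Nek2 and Kif22, with r from 0.9932 to 0.9899. All of these were on a list of other mitosis genes, and the clusters share libraries and were themselves drawn from such genes.

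Summed over all nuclei of an embryo, the members were lower after EtOH. The summed level was 1834, 2203, 2278, 2233 and 2710 CPM in the saline embryos (S1-1, S1-2, S2-1, S2-2 and S2-4, the order used throughout) and 1687 to 2165 CPM in the EtOH embryos, with a median of 1825. The groups overlapped, since saline embryo S1-1 lay among the EtOH embryos, and the means were 2252 ± 312 and 1866 ± 182 CPM (SD, n = 5 and 6), a ratio of 0.829. In single genes, tested with edgeR's quasi-likelihood test across all genes, 42 of 44 members had a log2 difference (EtOH minus saline) below 0. A gene was called when its p adjusted over all genes tested (Benjamini-Hochberg) was under 0.05 and its fold change was below 0.8 or above the inverse of 0.8. By this rule 22 of 44 members fell, against 3.55% of all 18138 genes tested. No member rose (0 by edgeR and 0 by DESeq2), against 8.55% of all genes by edgeR, and 0 were higher at an unadjusted p under 0.05, against 19.8% of all genes. The median log2 difference was -0.34 for the members and 0.008 for all genes. In such a sum, fewer cells of a type and less RNA per cell cannot be told apart.

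The drop differed in size between the batches. In batch 1 the mean summed level was 2018 CPM in saline and 1926 CPM in EtOH embryos (n = 2 and 2), a ratio of 0.954, and 24 of 44 members had a lower mean in EtOH. In batch 2 it was 2407 and 1836 CPM (n = 3 and 4), a ratio of 0.763, and 44 of 44 members were lower. These counts are by mean CPM, by which 40 of 44 were lower over both batches, against 42 of 44 by the fit with TMM scaling. Of the 22 members called, Ncapg, Cdca8 and Hmmr were not lower in batch 1, with ratios of means of 1.01, 1.00 and 1.02 there and of 0.71, 0.725 and 0.745 in batch 2. The other called members were lower in both, with ratios from 0.703 (Cenpf) to 0.978 (Birc5) in batch 1. The difference between the batches was not tested. With batch as a block in the fit, 21 members were called. With counts summed per dam 9 were called, with library size alone in place of TMM scaling 10, and without S1-2 12. The shares of all genes called in these fits, and in the fit with the block, are not given here. Without S2-4, which had the highest summed level, 15 members fell, against 6.38% of all genes, and the ratio of the summed levels was 0.873.

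Among the genes of the chromosome itself, Mki67 changed with the smallest p. It was at 86.2, 96.8, 102, 108 and 107 CPM in the saline embryos and at 59.9 to 81.0 CPM (median 64.3) in the EtOH embryos. Every EtOH embryo lay below every saline embryo, and the log2 difference was -0.63 ± 0.07 (SE; adjusted p = 0.00236, edgeR). Such a gap between the groups was seen for 4 of 44 members, Mki67, Cenpf, Bub1 and Anln, and for 2.16% of all genes tested. Cdca2, a protein phosphatase 1 subunit on anaphase chromosomes, was at 53.5, 63.9, 65.9, 60.6 and 75.9 CPM in saline and at 44.8 to 61.4 CPM (median 47.4) in EtOH embryos. It fell by 0.43 on the log2 scale (adjusted p = 0.0144), though EtOH embryo E1-1 reached into the saline range.

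The condensin genes compact chromosomes. Smc4, an ATPase of condensin, was at 96.2, 112, 116, 115 and 135 CPM in saline and at 84.1 to 108 CPM (median 92.0) in EtOH embryos, and fell by 0.37 on the log2 scale (adjusted p = 0.0133). Ncapg, a subunit of condensin I, was at 22.9, 25.9, 32.5, 31.1 and 33.3 CPM against 20.3 to 29.1 CPM (median 22.8), and fell by 0.38 (adjusted p = 0.0215). In both genes the groups overlapped, with S1-1 the lowest saline and E1-1 the highest EtOH embryo. Smc2 and Ncapd2 were below 0 with log2 differences of -0.27 and -0.18 and adjusted p of 0.0278 and 0.0433 but did not reach the fold limit. Top2a was at 136, 174, 177, 173 and 259 CPM in saline and 144 to 204 CPM (median 160) in EtOH embryos, and was not called (adjusted p = 0.266).

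Of the genes of the centromere and kinetochore 4 of 6 fell, and their median log2 difference was -0.42. Cenpf, a large protein of the outer kinetochore, was at 60.6, 84.0, 82.1, 77.9 and 84.8 CPM in saline and at 42.9 to 56.3 CPM (median 51.7) in EtOH embryos. The groups did not overlap, and its log2 difference of -0.69 ± 0.08 (SE; adjusted p = 0.00533) was the lowest of the 44. Knl1, the kinetochore scaffold that recruits the checkpoint kinases, was at 83.6, 104, 102, 98.6 and 120 CPM against 62.1 to 89.5 CPM (median 72.3), and fell by 0.53 (adjusted p = 0.0127). Cenpe, the kinesin that moves chromosomes to the spindle equator, was at 55.4, 70.7, 76.4, 69.8 and 92.3 CPM against 49.5 to 68.8 CPM (median 58.4), and fell by 0.39 (adjusted p = 0.0223). Nuf2, a subunit of the NDC80 complex that grips microtubules, was at 13.4, 17.3, 19.3, 17.7 and 20.5 CPM against 11 to 16.1 CPM (median 13.6), and fell by 0.44 (adjusted p = 0.0183). In Knl1, Cenpe and Nuf2 the only saline embryo within the EtOH range was S1-1. Ndc80 and Cenpa had log2 differences of -0.31 and -0.27 and were not called.

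The spindle checkpoint kinases and the chromosomal passenger complex, which hold anaphase back and correct wrong attachments, included 5 of the calls. Bub1, a checkpoint kinase at kinetochores, was at 27.3, 31.9, 36.0, 34 and 33.7 CPM in saline and at 20 to 27.2 CPM (median 22.1) in EtOH embryos. The groups were apart by a narrow margin, and the log2 difference was -0.59 ± 0.08 (SE; adjusted p = 0.00982). Ttk, the kinase also called Mps1, was at 28.6, 34, 33.5, 33.4 and 42.7 CPM against 24.4 to 32.2 CPM (median 27.8), and fell by 0.36 (adjusted p = 0.0185). Incenp, the scaffold of the passenger complex, was at 26.1, 33.9, 33.4, 38.0 and 41.6 CPM against 23.5 to 30.7 CPM (median 28.5), and fell by 0.37 (adjusted p = 0.0177). Birc5, or survivin, was at 12.2, 15, 14.8, 17.1 and 18.8 CPM against 11.5 to 13.5 CPM (median 12.9), and fell by 0.37 (adjusted p = 0.0154). Cdca8, or borealin, was at 20, 23.7, 26.4, 27.2 and 36.5 CPM against 18.9 to 24.8 CPM (median 22.3), and fell by 0.36 (adjusted p = 0.0350). In these 4 genes S1-1 again lay within the EtOH range and S2-4 was the highest embryo. Aurkb and Plk1, the kinases aurora B and polo-like kinase 1, were not called, with log2 differences of -0.18 and -0.15, nor was Bub1b at -0.28.

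Of the kinesins, which slide microtubules or carry cargo along them, 3 of 6 fell. Kif11, the motor that pushes the spindle poles apart, was at 77.8, 94.8, 101, 89.9 and 105 CPM in saline and at 54.5 to 79.6 CPM (median 64.0) in EtOH embryos, with a log2 difference of -0.59 ± 0.08 (SE; adjusted p = 0.00982). Kif15, which supports bipolar spindles beside Kif11, was at 68.4, 80.1, 91.9, 89.2 and 100 CPM against 60.1 to 80.2 CPM (median 68.1), and fell by 0.38 (adjusted p = 0.0154). Kif20b, a kinesin of the midbody, was at 44.7, 60.2, 62.3, 53.9 and 66.0 CPM against 37.6 to 56.4 CPM (median 42.7), and fell by 0.45 (adjusted p = 0.0185). In Kif11 the overlap was between S1-1 and E1-1 alone. Kif23, Kif4 and Kif2c had log2 differences of -0.30, -0.28 and -0.26 and were not called.

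The spindle proteins and cytokinesis gave 4 further calls. Tpx2, which targets Aurka to the spindle, was at 47.0, 58.5, 58.1, 56.8 and 65.9 CPM in saline and at 39.3 to 49.0 CPM (median 42.3) in EtOH embryos, and fell by 0.47 (adjusted p = 0.00982). Aspm, a protein of the spindle poles whose loss causes microcephaly, was at 33.4, 45.2, 49.5, 44.8 and 52.6 CPM against 28.2 to 38.8 CPM (median 32.2), and fell by 0.55 (adjusted p = 0.0127). Hmmr, a spindle assembly factor, was at 23.6, 30.3, 30.7, 28.4 and 41.7 CPM against 23.6 to 31.4 CPM (median 25), and fell by 0.32 (adjusted p = 0.0448). The Hmmr values overlapped widely, and 3 of 11 fits that each left out 1 embryo kept its call. Anln was at 40.6, 48.4, 46.0, 50.8 and 54.3 CPM against 33.6 to 39.7 CPM (median 36.1), with no overlap and a log2 difference of -0.46 ± 0.06 (SE; adjusted p = 0.00533). Ckap5 was at 289, 311, 316, 296 and 327 CPM against 272 to 303 CPM (median 280), a log2 difference of -0.20 (adjusted p = 0.0205) that did not reach the fold limit. Gtse1, Ckap2l, Nusap1, Prc1 and Ckap2, which bind or bundle spindle microtubules, had log2 differences of -0.39, -0.27, -0.26, -0.19 and -0.12 and were not called.

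Of the cyclins, Cdk1 and the genes of the anaphase-promoting complex, 2 of 6 fell. Ccna2, cyclin A2, was at 4.29, 5.14, 6.43, 6.36 and 5.79 CPM in saline and at 4.29 to 4.83 CPM (median 4.52) in EtOH embryos, and fell by 0.37 (adjusted p = 0.0237). Ccnb1 was at 8.91, 10.7, 11.6, 12.2 and 16.4 CPM against 8.46 to 11.7 CPM (median 9.54), and fell by 0.36 (adjusted p = 0.0461), a call that 2 of the 11 fits without 1 embryo kept. Ccnb2, Cdk1 and Ube2c had log2 differences of -0.01, -0.10 and -0.01. Cdc20 and Aurka were the 2 members above 0, at 0.09 and 0.06, and were not called. Calls that every one of the 11 fits without 1 embryo kept were those of Anln, Aspm, Bub1, Cdca2, Cenpf, Kif11, Kif15, Knl1, Mki67, Smc4 and Tpx2.

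**Figure D2:**
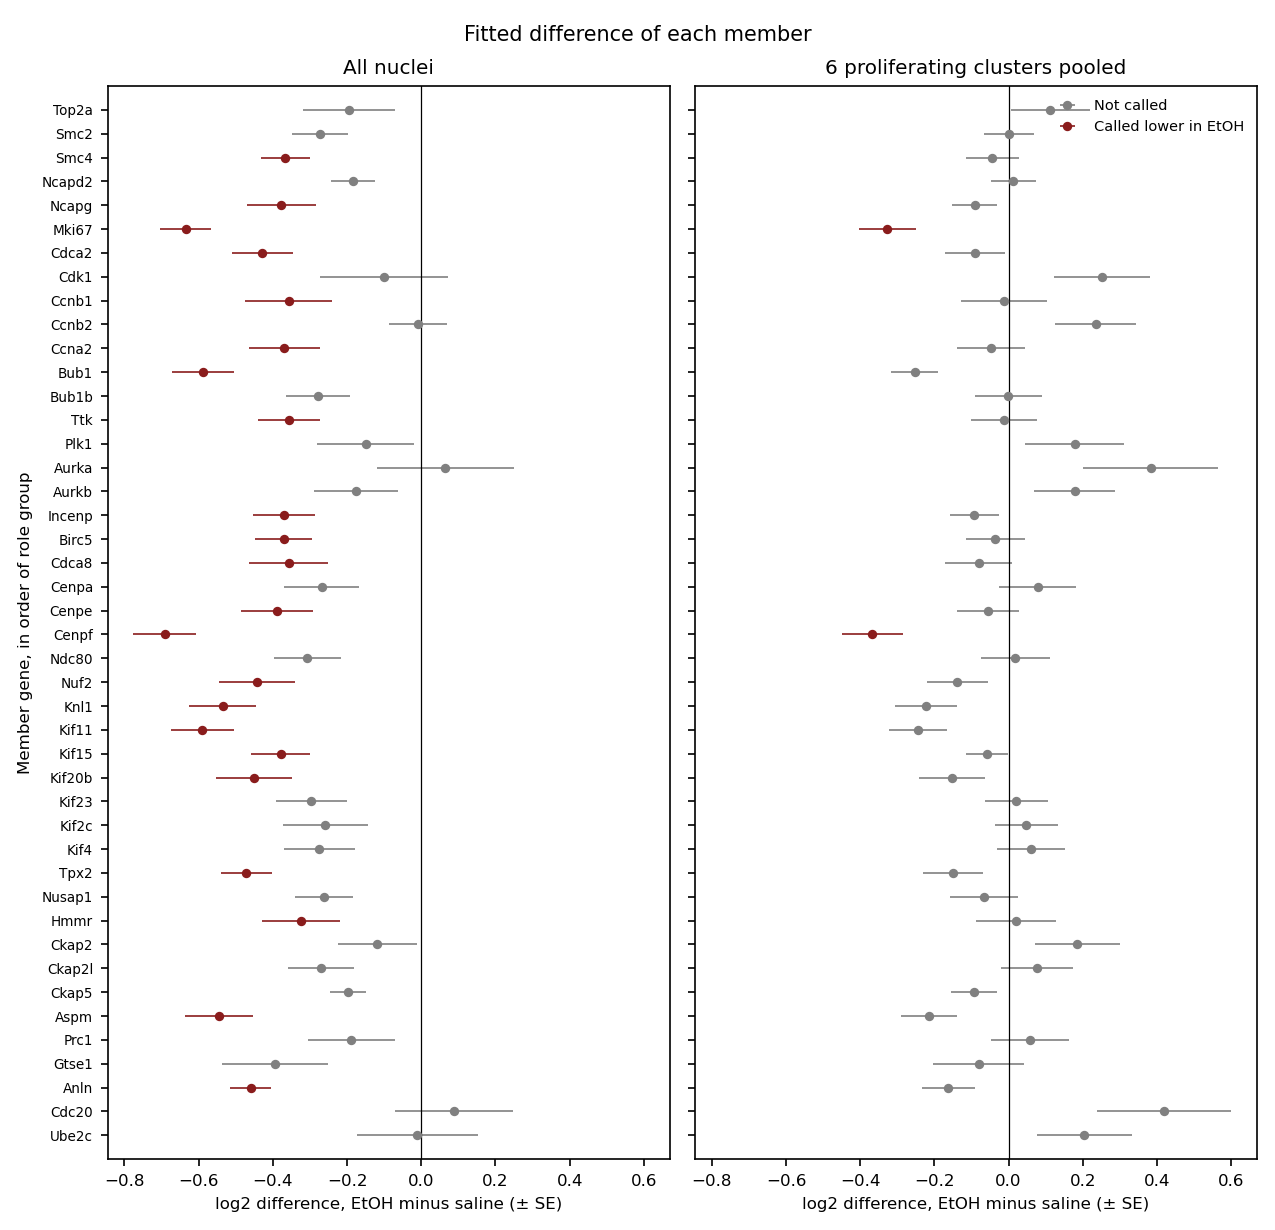
Log2 difference (EtOH minus saline, ± SE from edgeR) of each of the 44 members, in all nuclei (left) and in the 6 proliferating clusters pooled (right), with called members in dark red. In all nuclei 42 members lie left of 0 and 22 are called, and in the proliferating clusters 25 lie left of 0 and 2 are called. These fits use TMM scaling, and by plain CPM 40 and 16 of the 44 had a lower mean in EtOH embryos.

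With the 6 proliferating clusters pooled, the summed level was 6042, 6578, 5729, 5346 and 7547 CPM in the saline embryos and 5807 to 6472 CPM (median 6357) in the EtOH embryos. All EtOH embryos lay inside the saline range, and the ratio of the means was 1.01, with 0.961 in batch 1 and 1.03 in batch 2. A change in the mix of clusters within the pool would move this ratio too. By cluster the ratio was 0.952 to 1.02 in the larger Clusters 2, 3, 10 and 17, and 0.734 in Cluster 20 and 0.792 in Cluster 21, and the embryos of the treatments overlapped in each. In batches 1 and 2 the ratios were 0.851 and 0.693 in Cluster 20, 0.840 and 0.762 in Cluster 21, 0.983 and 0.957 in Cluster 3, and 0.952 and 0.944 in Cluster 17. They were 0.985 and 1.03 in Cluster 2 and 0.767 and 1.06 in Cluster 10. The batch 1 ratio in Cluster 20 rests on 1 EtOH embryo, E1-1. In batch 2, E2-4 was at 2117 CPM in that cluster, against 3536 and 3425 CPM in E2-1 and E2-2. A smaller share of the nuclei of EtOH embryos lay in the 6 clusters. The authors had removed 1 saline sample whose spread over clusters differed from that of the rest. The saline group was thus chosen in part on cluster shares. The 6 clusters held 24, 27.6, 31.8, 29.8 and 28.4% of nuclei in saline and 18.9 to 25.5% (median 23.2%) in EtOH embryos, with overlap through S1-1. They carried 24.5 ± 4.23% (SD, n = 11) of all UMIs and 74.8 ± 3.76% of the members' UMIs. When the UMI share of the 6 clusters was set to its mean over embryos, the summed level in all nuclei was 1936 to 2423 CPM in saline and 1903 to 2122 CPM in EtOH embryos, a ratio of 0.962. The mix of clusters inside the 6, and among the clusters outside them, was left as found. When the share was left as found and the level in each class was set to its mean, the ratio was 0.858.

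**Figure D3:**
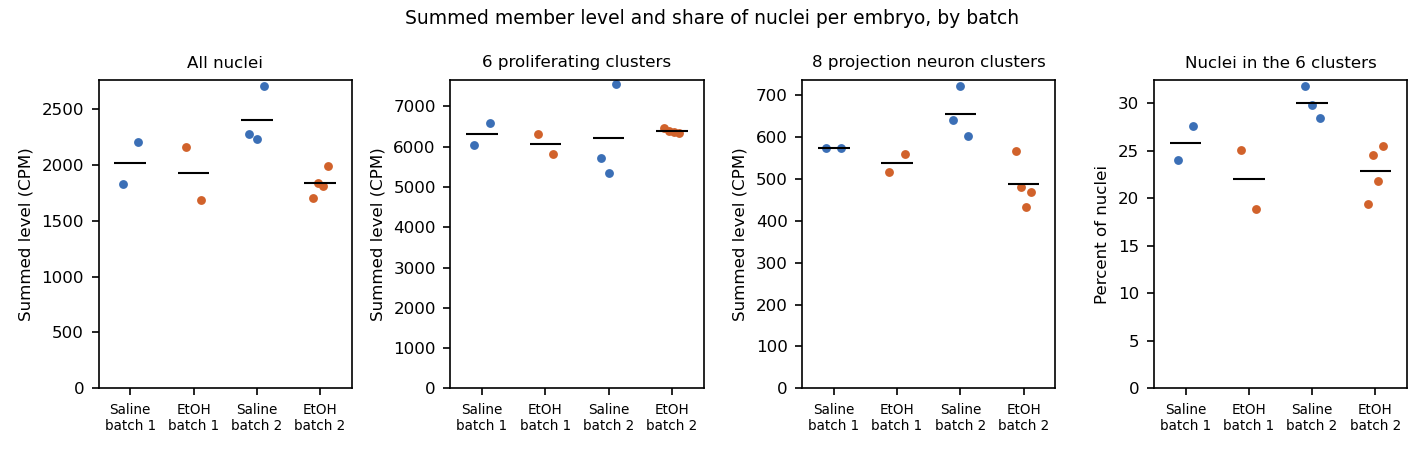
Summed member level in CPM in all nuclei, the 6 proliferating clusters and the 8 PN clusters, and the percent of nuclei in the 6 clusters, with 1 point per embryo and a line at each mean, by treatment and batch. The level in the 6 clusters pooled has an EtOH to saline ratio of 1.01 (0.734 to 1.02 by single cluster), while in all nuclei the ratio is 0.954 in batch 1 and 0.763 in batch 2.

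Of single members in the pooled clusters, 2 of 44 fell, against 0.706% of all 14599 genes tested, and 0 rose by edgeR or DESeq2, against 1.08% of all genes. At an unadjusted p under 0.05 (edgeR), 7 members were lower and 2 higher, while 29% of all genes were at that limit in either direction. In the fit 25 members were below 0, and by mean CPM 16 were lower in EtOH embryos. Cenpf was at 225, 281, 236, 204 and 258 CPM in saline and at 182 to 218 CPM (median 196) in EtOH embryos (log2 difference -0.37 ± 0.08, SE; adjusted p = 0.0466). Mki67 was at 293, 305, 249, 237 and 291 CPM against 207 to 240 CPM (median 234; log2 difference -0.33 ± 0.08; adjusted p = 0.0474). In both genes S2-2 was the saline embryo within the EtOH range. Both calls were lost with batch as a block (0 called) and in each of the 10 fits that left out an embryo other than S2-4. The ratio of means for Mki67 was 0.739 in batch 1 and 0.910 in batch 2, and for Cenpf 0.721 and 0.875. Next by p came Bub1 at a log2 difference of -0.25 and Kif11 at -0.24, with adjusted p of 0.0507 and 0.0711.

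Members at the other end of the range depended on S2-4. Aurka was at 30.5, 34.8, 26.8, 31.2 and 62.0 CPM in saline and at 46.6 to 60.6 CPM (median 48.1) in EtOH embryos, and Cdc20 at 13.5, 15.3, 12.2, 13.1 and 26.9 CPM against 19.5 to 27.0 CPM (median 22). In both genes the first 4 saline embryos lay below every EtOH embryo, while S2-4 lay above the EtOH range for Aurka and just under its top for Cdc20. With all embryos neither was called (log2 differences 0.38 ± 0.18 and 0.42 ± 0.18, SE; adjusted p of 0.187 and 0.145). Without S2-4, 5 members rose, Aurka by 0.60, Cdc20 by 0.63, Cdk1 by 0.38, Ube2c by 0.34 and Ccnb2 by 0.33 on the log2 scale, and Cenpf and Mki67 still fell. That is 5 of 44 higher against 12.6% of all genes and 2 of 44 lower against 5.41%, so the share that rose was near that of all genes. S2-4 also had the highest Top2a, at 798 CPM against 477 to 593 CPM in the other saline embryos.

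**Figure D4:**
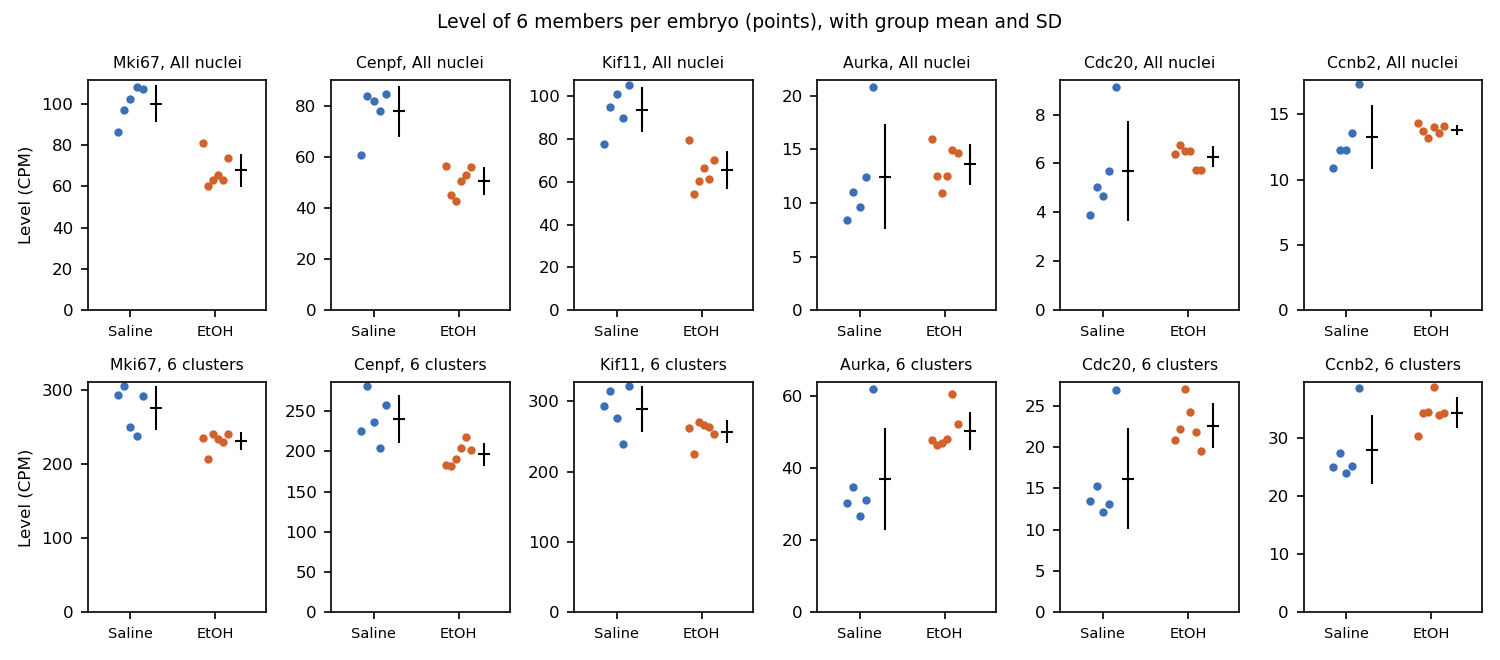
Level in CPM of Mki67, Cenpf, Kif11, Aurka, Cdc20 and Ccnb2 in all nuclei (top) and in the 6 proliferating clusters (bottom), with 1 point per embryo and the group mean with SD in black. Mki67 and Cenpf in all nuclei do not overlap between treatments, and the saline point far above the rest for Aurka and Cdc20 is S2-4 (62.0 and 26.9 CPM in the 6 clusters).

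Differences in the pooled clusters also ran with the length of the gene. Over the 44 members, the log2 difference and the gene span had a Spearman rho of -0.561, and the same rho over all 14454 genes with a span was -0.356. The 13 members under 20 kb had a median log2 difference of 0.18 and the 31 longer ones of -0.07, a limit chosen after the values were seen. Over all genes the medians on each side of this limit were 0.13 and -0.05. In all nuclei the rho was -0.508 over the members and -0.247 over all genes. These are descriptions across genes of the same libraries, and the part of gene length in the differences was not tested.

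Within single proliferating clusters, 2 of the 246 member tests were called. In Cluster 3, Mki67 was at 304, 332, 228, 289 and 306 CPM in saline and at 204 to 294 CPM (median 218) in EtOH embryos, and Cenpf at 206, 264, 202, 209 and 233 CPM against 164 to 206 CPM (median 178). Both fell, by 0.42 and 0.35 on the log2 scale (adjusted p of 0.0431 and 0.0448), against 0.776% of all genes in that cluster, and the groups overlapped in both. In Cluster 3 the member highest above 0 by p was Cdk1, the kinase that drives entry into mitosis, at 25.4, 29.0, 27.7, 35.4 and 42.3 CPM against 34.4 to 53.7 CPM (median 45.3; adjusted p = 0.147).

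In Clusters 2, 10, 17, 20 and 21, edgeR called 0 members in either direction, while 37 tests were lower and 6 higher at an unadjusted p under 0.05 among the 44, 43, 44, 38 and 33 members tested, against 7.44% and 9.10% of all tests of genes there. In Cluster 2, 3 of 44 were lower and 1 higher at that limit, while 23.8% of all genes there were at it in either direction. That share was 15.8% in Clusters 10 and 17, 10.4% in Cluster 20 and 12.4% in Cluster 21. DESeq2 called 2 members lower, both in Cluster 10, and the share of all genes that it called there is not given here. The leading members by p are given here with their values. In Cluster 2, Bub1 was at 129, 127, 147, 101 and 124 CPM in saline and 91.7 to 114 CPM (median 106) in EtOH embryos (adjusted p = 0.0778), and Aurka at 37.3, 45.3, 48.5, 33.4 and 68.2 CPM against 55.0 to 79.7 CPM (median 63.6; adjusted p = 0.120). Bub1 overlapped through S2-2 and Aurka through S2-4. In Cluster 10, Cenpf was at 204, 243, 189, 214 and 222 CPM against 104 to 179 CPM (median 160; adjusted p = 0.0621), without overlap, and Aurkb at 19, 19.9, 15.1, 27.0 and 22.1 CPM against 18.2 to 33.5 CPM (median 28.6; adjusted p = 0.289). In Cluster 17, Cenpf was at 280, 273, 337, 335 and 282 CPM against 185 to 322 CPM (median 210; adjusted p = 0.122), and Ccnb2 at 34.4, 29.1, 31.2, 34.1 and 44.6 CPM against 35.8 to 68.5 CPM (median 49.9; adjusted p = 0.181). Cenpf thus led the lower side in both Cluster 10 and Cluster 17.

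Clusters 20 and 21 are small, and not every embryo had enough nuclei in them. In Cluster 20, with 5 saline and 4 EtOH embryos, the summed level was 3556 to 5288 CPM in saline and 2117 to 3663 CPM in EtOH embryos, and 15 of 38 members tested were lower and 0 higher at an unadjusted p under 0.05, against 4.79% and 5.62% of all genes. Mki67 there was at 182, 234, 230, 187 and 219 CPM against 88.7 to 146 CPM (median 127; adjusted p = 0.169), without overlap, while Ckap2, a spindle protein, was at 40.2, 62.1, 56.9, 36.6 and 55.5 CPM against 35.5 to 72.0 CPM (median 58.3; adjusted p = 0.882). In Cluster 21, with 5 embryos per treatment, Kif11 was at 74.8, 168, 141, 125 and 112 CPM against 28.2 to 88.2 CPM (median 79.4; adjusted p = 0.144), and Kif4, a chromokinesin, at 74.8, 84.8, 62.7, 92.3 and 88.6 CPM against 50.8 to 121 CPM (median 82.2; adjusted p = 0.775). Neither cluster had a call. In Cluster 20, 38 members passed the filter on low counts, and in Cluster 21, 33 did. That filter took account of the treatment groups, so a member could pass through the saline embryos alone, where it was higher. The counts at an unadjusted p under 0.05 given for these clusters may therefore lean to lower values.

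Neurons, which do not divide, carried a low level of member RNA. In the 8 PN clusters together the summed level was 574, 574, 642, 722 and 603 CPM in saline and 433 to 568 CPM (median 499) in EtOH embryos. The groups did not overlap, by a margin of a few CPM, and the ratio of means was 0.810, with 0.938 in batch 1 and 0.744 in batch 2. Ckap5 alone made up 39.9% of this sum, against 8.12% in the proliferating clusters. Without Ckap5, Ncapd2 and Ccnb2, the members with the highest PN level relative to the proliferating clusters, the sum of the other 41 was 299 to 450 CPM in saline and 191 to 306 CPM in EtOH embryos, which overlapped, at a ratio of 0.711. Relative to the level in the 6 proliferating clusters, 38 members stood under 10% in the PN clusters, with a median over the 44 of 5.13%, and the lowest was Top2a at 3.01%. The 6 members at or above 10% were Ckap5 (43.3%), Ncapd2 (23.8%), Ccnb2 (23%), Smc2 (12.7%), Ccna2 (11.3%) and Ube2c (10.5%).

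**Figure D5:**
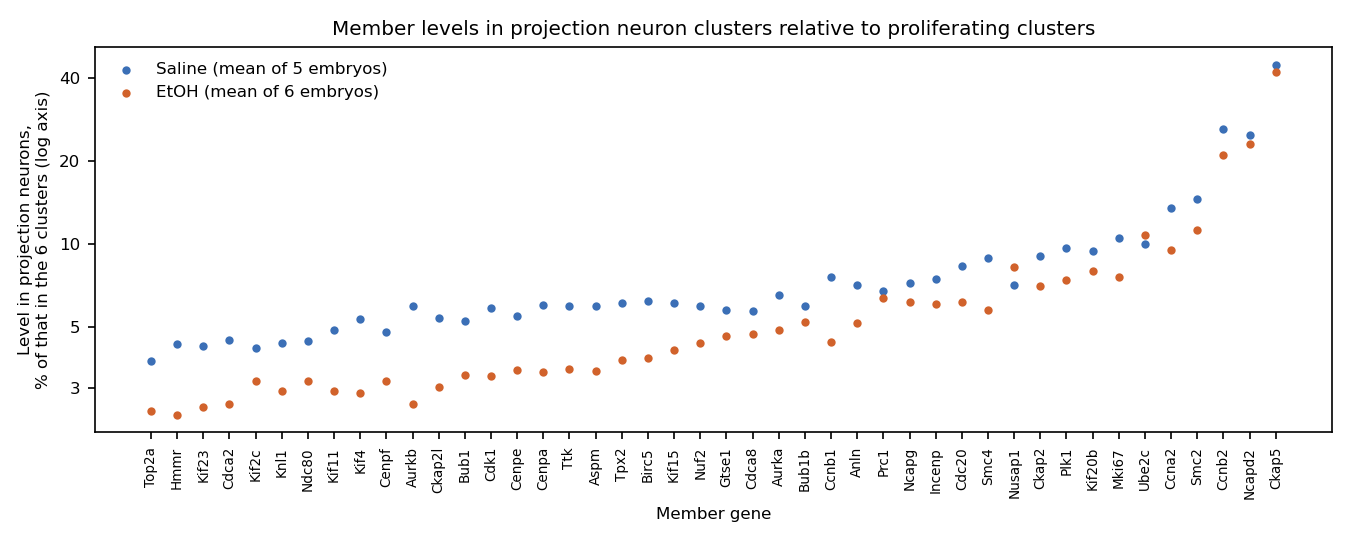
Level of each member in the 8 PN clusters as a percent of its level in the 6 proliferating clusters (log axis), as the mean of 5 saline (blue) and of 6 EtOH (orange) embryos, in order of the percent over all embryos. Most members lie between 3 and 10%, Ckap5, Ncapd2 and Ccnb2 stand at 23% or more, and EtOH lies below saline for 42 members. This percent also moves with the level in the 6 clusters. By mean CPM in the PN clusters alone 39 members were lower in EtOH, with 26 lower in batch 1 and 43 in batch 2.

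Single calls outside the proliferating clusters numbered 15 of 367 member tests, and all were lower in EtOH embryos. Of these tests, 319 had a log2 difference below 0, 115 were lower and 0 higher at an unadjusted p under 0.05, and members that did not pass the filter on low counts are not among them. The filter took account of the treatment groups, so a member could pass through the saline embryos alone, where it was higher. These counts may therefore lean to lower values. Of all tests of genes in these 19 clusters, 7.75% were lower and 9.46% higher at that limit. In batch 1 the summed member level was higher in EtOH embryos in 10 of the 18 clusters with a value, and in batch 2 in 1 of 19. Over all 25 clusters 17 of 613 member tests were called lower, against 0.350% of all tests of genes, and 0 were called higher by edgeR or DESeq2, against 0.442%. At an unadjusted p under 0.05, 162 member tests were lower and 8 higher. The share of all tests at that limit over the 25 clusters together is not given here. In the 19 clusters without a call, 88 of 444 member tests were lower and 6 higher at an unadjusted p under 0.05, against 7.02% and 8.89% of all tests of genes there, and DESeq2 called 9 lower, against 0.663%. The number of calls moved with single embryos. With batch as a block there were 8 calls, 7 of them among the 17. These 7 were Smc4, Tpx2, Cdca2, Cenpe and Cenpf in Cluster 1, Kif11 in Cluster 8 and Mki67 in Cluster 3, and the other 10 calls given for single clusters were lost under the block. Without any 1 of the 10 embryos other than S2-4 there were 0 to 4, and without S2-4 there were 55 lower and 6 higher, against 2.61% and 6.17% of all tests.

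In Cluster 1 (callosal PN) 6 of 25 members tested fell, against 1.69% of all genes. Smc4 was at 34.7, 30.9, 22.1, 33.8 and 24.2 CPM in saline and at 15.4 to 21.8 CPM (median 19.1) in EtOH embryos, without overlap, and fell by 0.68 (adjusted p = 0.0270). Tpx2 was at 7.65, 7.22, 11.4, 14.1 and 5.99 CPM against 2.21 to 6.62 CPM (median 3.45), and Cdca2 at 9.90, 5.47, 6.32, 10.6 and 5.07 CPM against 2.17 to 5.90 CPM (median 3.49). These fell by 1.22 and 1.18 (adjusted p of 0.0375 and 0.0397), with S2-4 the lowest saline embryo in both. Cenpe was at 10.4, 7.47, 11.1, 18.5 and 8.06 CPM against 3.32 to 7.86 CPM (median 5.43), Cenpf at 9.60, 6.97, 12.6, 15.3 and 12.7 CPM against 3.11 to 8.85 CPM (median 5.95), and Kif11 at 14.9, 6.47, 12.2, 16.5 and 8.98 CPM against 3.32 to 8.70 CPM (median 5.5). They fell by 1.06, 0.98 and 1.06 (adjusted p of 0.0397, 0.0432 and 0.0448), and the overlap in each came through S1-2.

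In Cluster 4 (rostral subcortical PN) 3 of 33 fell, against 0.386% of all genes. Cenpf was at 13.4, 17.4, 16.9, 13.4 and 11.5 CPM in saline and at 3.78 to 9.31 CPM (median 7.31) in EtOH embryos, Hmmr at 6.28, 7.0, 6.85, 5.48 and 5.07 CPM against 2.51 to 3.57 CPM (median 3.04), and Aspm at 8.08, 10.4, 9.73, 13.1 and 7.69 CPM against 4.02 to 6.08 CPM (median 5.27). In all of these the groups were apart, and the genes fell by 1.01, 1.04 and 0.91 (adjusted p = 0.0495 each). In Cluster 8 (PN 1) 4 of 28 fell, against 0.865% of all genes. Kif11 was at 14.1, 14.3, 16.9, 22.7 and 13.8 CPM against 3.52 to 12.4 CPM (median 4.87), and Mki67 at 23.1, 22, 30.0, 46.2 and 23.3 CPM against 8.41 to 21.9 CPM (median 14.5). Kif11 and Mki67 fell by 1.20 and 1.00 (adjusted p of 0.0401 and 0.0405), with S2-2 the highest embryo in both. Kif15 was at 14.1, 16, 19.1, 18.3 and 14.6 CPM against 5.48 to 13.4 CPM (median 10.1), and Cdca8 at 6.52, 5.43, 5.63, 7.41 and 6.37 CPM against 1.37 to 3.51 CPM (median 3.16). They fell by 0.71 and 1.06 (adjusted p of 0.0469 and 0.0423), again without overlap.

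In Cluster 9 (early PN) 1 of 17 members fell, against 0.799% of all genes, and in Cluster 14 (layer I Cajal-Retzius cells) 1 of 22, against 0.0554%. Kif11 in Cluster 9 was at 15.3, 12.5, 15.3, 18.9 and 12.6 CPM in saline and at 3.15 to 13.2 CPM (median 5.79) in EtOH embryos, and fell by 1.27 (adjusted p = 0.0435). Mki67 in Cluster 14 was at 33.9, 30.2, 30.4, 39.6 and 31.5 CPM against 13.5 to 22 CPM (median 15.5), and fell by 0.98 (adjusted p = 0.0348). Kif11 overlapped through E1-2, and Mki67 did not overlap. Over the 6 clusters with calls, 11 different members were called.

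With the 8 PN clusters pooled, 13 of 43 members tested were called lower, against 2.36% of all genes, and with the 19 clusters outside the 6 pooled, 14 of 44, against 2.58% (fits added after the values were seen). In the 6 Int clusters outside the 6, the summed level was 658 to 903 CPM in saline and 549 to 938 CPM in EtOH embryos, which overlapped. The ratio of means was 0.881 over all embryos, 1.24 in batch 1 and 0.721 in batch 2.

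Counted per nucleus, member RNA in neurons was spread thinly. Each nucleus was thinned to 2000 UMIs, and nuclei with fewer were left out (28 saline and 40 EtOH in the PN clusters, 71 and 87 in the proliferating clusters). In the PN clusters 10.3, 9.15, 12.8, 17.5 and 10.5% of nuclei in saline and 5.10 to 7.70% (median 7.17%) in EtOH embryos had at least 3 member UMIs. The groups did not overlap. Without thinning the means were 79.9% and 51.5%, a gap that also holds the difference in depth. Nuclei with fewer than 5 member UMIs carried 87.4% of the members' UMIs in saline and 88.1% in EtOH PN nuclei, and 0.463% and 0.366% of PN nuclei had 10 or more. Those with 10 or more had a median of 17014 UMIs in saline and 14282 in EtOH embryos, against 8628 and 6691 for all PN nuclei. Doublets were not called, and RNA from outside the nuclei was not measured here, so their part in the neuronal level was not tested.

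In the proliferating clusters pooled, the groups overlapped. At least 3 member UMIs were found in 66.5, 68.0, 65.0, 72.5 and 74.0% of nuclei in saline and in 60.8 to 69.3% (median 66.2%) in EtOH embryos. The mean was 11.6 member UMIs per thinned nucleus in saline and 11.7 in EtOH, while 9.10% and 13.1% of nuclei had 0. Among nuclei with at least 5, the mean was 18.5 ± 2.17 (SD, n = 5) and 19.3 ± 1.09 (n = 6). By single cluster the share of nuclei with at least 3 was 93.9 ± 3.01% in saline and 91.4 ± 2.46% in EtOH embryos in Cluster 17 (SD), and the EtOH to saline ratio was 0.933 to 0.973 in Clusters 2, 3, 10 and 17, where the groups overlapped. In Cluster 20 it was 41.1 to 57.1% in saline and 24.1 to 38.9% in EtOH embryos (n = 5 and 4), without overlap, at a ratio of 0.693. In Cluster 21 it was 31.5 to 49.8% and 16.7 to 39.4% (n = 5 and 5), with overlap, at a ratio of 0.650. Outside the 6, Cluster 12 had 38.6 ± 5.66% and 27.8 ± 5.17%.

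Markers of other cell types were set beside the PN result. In the PN clusters the 8 radial glia markers summed to 107 to 125 CPM in saline and 97.4 to 134 CPM in EtOH embryos, with 7 of 8 lower on average in EtOH. The 4 IPC markers summed to 40.5 to 60.1 CPM and 30.0 to 39.9 CPM, with 4 of 4 lower and no overlap, and the 7 interneuron markers to 316 to 779 CPM and 178 to 381 CPM, with 7 of 7 lower. The 5 erythroid markers spanned 6.51 to 147 CPM and 20.4 to 46.2 CPM. The 147 CPM was in saline embryo S2-2, which also had the highest member level in the PN clusters (722 CPM). Its sums there for fibroblast (34.4 CPM), pericyte (6.45 CPM) and oligodendrocyte precursor markers (2.92 CPM) were the highest too. The EtOH to saline ratio of the summed level was also below 1 for markers of fibroblasts (0.731), pericytes (0.706), endothelial cells (0.854), oligodendrocyte precursors (0.829) and thalamic cells (0.778), with 5 of 6, 3 of 4, 4 of 5, 3 of 4 and 3 of 3 genes lower. In the saline embryos other than S2-2, fibroblast markers summed to 9.27 to 13.2 CPM, against 10.1 to 14.5 CPM in EtOH embryos. Oligodendrocyte precursor markers summed to 0.821 to 1.80 CPM there, against 1.12 to 1.73 CPM. Cxcl12 made up 8.25 of the mean 14.0 CPM for fibroblasts, and Ntng1 67.4 of 87.9 CPM for thalamic cells. Cxcl12 was at 33.7 CPM in Cluster 9 (early PN), so such a sum need not stand for that cell type. The 5 microglia markers were higher on average in EtOH embryos, at 8.91 to 21.3 CPM and 18.4 to 27.4 CPM. Of these lists, only the IPC markers did not overlap between the treatments. In the proliferating clusters the radial glia markers were at 773 to 894 CPM in saline and 898 to 1090 CPM in EtOH embryos, without overlap. The part of other cells in the members' levels was not tested.

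Genes of related pathways were read from lists of other mitosis genes and of DNA replication genes. In all nuclei, 27 of 93 other mitosis genes tested fell and 0 rose by edgeR, with 59 lower and 1 higher at an unadjusted p under 0.05, and their median log2 difference was -0.258. Of all genes, 3.55% fell, and 18.3% were lower and 19.8% higher at an unadjusted p under 0.05. Depdc1a fell by 0.60, Sgo2a, a protector of centromere cohesion, by 0.81 and Arhgap11a by 0.44 (adjusted p of 0.00236, 0.00533 and 0.0107). In the pooled proliferating clusters 1 of 93 fell, Sgo2a by 0.45 (adjusted p = 0.0486), a share near the 0.706% of all genes. In single clusters Sgo2a fell in Clusters 3 and 4, Diaph3, an actin nucleator of the cleavage furrow, in Clusters 1, 8 and 9, and Ect2, the exchange factor that starts cytokinesis, in Cluster 1. Listed genes called lower were 3 of 45 in Cluster 1, 1 of 91 in Cluster 3, 1 of 63 in Cluster 4, 1 of 47 in Cluster 8 and 1 of 34 in Cluster 9. Of all genes there, 1.69%, 0.776%, 0.386%, 0.865% and 0.799% were called lower, so the share in Cluster 3 was near that of all genes.

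Of the DNA replication genes, 7 of 53 fell and 1 rose in all nuclei, against 3.55% and 8.55% of all genes, with a median of -0.245. Their summed level overlapped, at 1365 to 1971 CPM in saline and 1293 to 1661 CPM in EtOH embryos. Pola1, the catalytic subunit of DNA polymerase alpha, fell by 0.36, E2f7, a repressor of E2F targets, by 0.55 and Gins1, a subunit of the replicative helicase, by 0.35 (adjusted p of 0.0144, 0.0148 and 0.0148). Mcm7, another subunit of that helicase, rose by 0.45 in all nuclei and by 0.60 in the pooled proliferating clusters (adjusted p of 0.0254 and 0.0466). In the pooled clusters it was the only one of 53 called, a share near the 1.08% of all genes called higher there. In single clusters Mcm7 rose in Clusters 2, 4 and 12, by 0.55, 0.67 and 0.63, and Orc1, a subunit of the origin recognition complex, rose in Cluster 1 by 0.85. Each was the only listed gene called higher, among 53, 38, 50 and 36 tested in Clusters 2, 4, 12 and 1. Of all genes there, 42 of 11837, 38 of 11402, 31 of 8843 and 169 of 10769 were called higher. Pola1 fell in Clusters 1 and 11, and Hells, a chromatin remodeller, fell in Cluster 16 by 1.37. Each was the only listed gene called lower, among 36, 36 and 20 tested in Clusters 1, 11 and 16. Of all genes there, 182 of 10769, 39 of 10185 and 21 of 8509 were called lower.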

How the data were processed

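Single-nucleus RNA sequencing was performed on cortices of 5 saline and 6 EtOH embryos. The deposited tables hold raw UMI counts per gene and nucleus, which the authors made with Cell Ranger on mm10 (per the submitters' processing notes), and the authors filtered nuclei and assigned clusters in Seurat before depositing 1 table per embryo and cluster. Whether counting used strand is not given in the sources used here, and 9 members overlap a gene on the other strand. A further saline embryo named in the labels was not used here, nor were empty droplets.

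Counts were summed per embryo and cluster with at least 10 nuclei, in the 6 proliferating clusters pooled, and in all nuclei. CPM used plain UMI totals. Differences were tested across all genes that passed filterByExpr with edgeR 4.0.16 (R 4.3.3; TMM, robust quasi-likelihood test, Benjamini-Hochberg within each fit), and adjusted p-values in the text come from it. The SE is the absolute log2 difference over the square root of F. DESeq2 1.42.0 was an alternative. Embryos of the same batch are linked by the label of a shared batch, so batch served as the block. Levels, shares of nuclei, cluster order and correlations were described without a test. Intervals between embryos reflect littermates, and depth limits low counts in EtOH embryos. Nuclei were thinned to 2000 UMIs for shares.

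Gene spans came from GENCODE M21, matched by symbol for 23136 genes (98.4%). Members and gene lists were chosen with earlier results of these data known. Values were given per saline embryo, and as the range and median of the EtOH embryos, for members called in all nuclei, in the pooled proliferating clusters or in a single cluster and, in each of the 6 proliferating clusters, for the member with the smallest p in each direction. The member of each role group with the highest CPM per kb, the 10 genes most like the summed level, and up to 3 called genes per direction and fit of the related lists were named. One gene that this rule would name is not reported here. Other members given with values were chosen after these were seen.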

Additional observations from a re-analysis of the deposited data

Results flagged for a closer look

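Within each treatment, the summed member level was searched for an embryo far from the rest of its group, in 59 groups of 4 to 6 embryos, and 4 were found, where chance gives about 1 in 20. In Cluster 13 (Int 2), EtOH embryo E1-2 was at 897 CPM and the other EtOH embryos at 540 to 631 CPM. In Cluster 17 (mitotic IPCs), EtOH embryo E2-2 was at 9565 CPM and the others at 7036 to 7975 CPM. In Cluster 20 (RGC 2), EtOH embryo E2-4 was at 2117 CPM and the others at 3425 to 3663 CPM. In the 6 proliferating clusters pooled, EtOH embryo E1-2 was at 5807 CPM and the others at 6321 to 6472 CPM.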

How the results depend on the processing

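The 22 members called lower in all nuclei became 10 with library size alone in place of TMM and 9 with counts summed per dam, and 12 (without S1-2) to 28 (without S1-1) when 1 embryo was left out. Anln, Aspm, Bub1, Cenpf, Kif11, Knl1, Mki67 and Tpx2 were called in 19 of 19 alternatives. Among fits chosen after seeing the data, the 19 other clusters pooled gave 14 and the 8 PN clusters pooled 13. With batch as the replicate block, 21 were called in all nuclei, 0 in place of 2 in the pooled proliferating clusters and 8 in place of 17 over the single clusters. The 2 pooled calls were also 0 with library size alone, per dam and thinned to 2000 UMIs, and 0 to 2 with 1 embryo left out (2 without S2-4). The 17 single-cluster calls became 1 with library size alone, 29 with DESeq2, 102 with no filter on low counts, 6 per dam, 2 thinned to 2000 UMIs and 8 when adjusted over all clusters together, and ranged from 0 to 55 (without S2-4) with 1 embryo left out. The cause of these shifts was not tested. For most of these alternatives the share of all genes called is not given. Such counts alone therefore do not show whether members moved more than other genes. Leaving out 1 embryo gave EtOH to saline ratios of the summed level of 0.792 to 0.873 in all nuclei, 0.971 to 1.06 in the pooled clusters and 0.790 to 0.844 in the PN clusters, and the 6 highest clusters were the same in each alternative run.

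The difference in nuclei with at least 3 member UMIs in the PN clusters, -5.43 percentage points, was -10.1 for at least 2, -0.758 for at least 5, -28.4 without thinning, -14.8 thinned to 4000 UMIs and -6.16 to -4.07 with 1 embryo left out. In the proliferating clusters -3.57 became -4.52 for at least 2, -0.700 for at least 5, -9.98 without thinning, -1.76 thinned to 4000 UMIs and -4.62 to -2.37 with 1 embryo left out. Ckap2 in Cluster 20, not called at 0.17, ranged from -0.06 (without E2-1) to 0.28 (without E2-2).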
